A study of Ovis aries with 10 samples.

Results

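COL3A1, COL6A1 and MMP2 were followed on 9 probes of a sheep array that held 15008 probes, with 4 probes for COL3A1, 2 named COL6A1 and 3 for MMP2. These are 3 of the 1033 genes that probes of the array were named for. The members were all non-control probes whose gene name, gene identifier, accession or description was one of these 3 genes, and each probe was kept separate. The tissue was free wall of the left ventricle from singleton fetuses near term. All ewes were infused from about day 115 of pregnancy until labour had begun, and tissue was taken at 139 to 144 days. The cortisol group received cortisol (Solu-Cortef) at 1 mg/kg/day and the control group received vehicle, given to the mother and not to the fetus. Each treatment was given to 7 ewes, and 5 fetuses per group were measured, with 1 array per fetus.

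COL3A1 encodes the chain of type III collagen, a fibrillar collagen that is laid down with type I collagen in the stroma of the heart wall. COL6A1 encodes a chain of type VI collagen, which forms beaded microfilaments between cells and the fibrillar network. MMP2 encodes gelatinase A, a secreted protease that cleaves denatured collagen and basement membrane collagen. Fibroblasts are the main source of these transcripts in the heart. Glucocorticoids are known to act on both collagen synthesis and matrix proteases.

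The 60-base probe sequences are shown because the probes of a gene read different stretches of its transcript, and the values below differ between them. Those of COL3A1 come first, 5′ to 3′ as the deposited files give them. Capitals mark the glycine codon pattern GGN at a spacing of 9 bases in A_70_P006991 and A_70_P048191, and the 58 bases shared by A_70_P016307 and A_70_P016306.
COL3A1 A_70_P006991: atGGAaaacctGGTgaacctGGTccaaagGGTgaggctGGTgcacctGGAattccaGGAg
COL3A1 A_70_P048191: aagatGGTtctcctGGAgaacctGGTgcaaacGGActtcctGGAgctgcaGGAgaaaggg
COL3A1 A_70_P016307: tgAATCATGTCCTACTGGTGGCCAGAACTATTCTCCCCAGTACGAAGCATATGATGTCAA
COL3A1 A_70_P016306: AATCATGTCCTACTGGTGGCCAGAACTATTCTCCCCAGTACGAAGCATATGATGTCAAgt

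In a collagen triple helix glycine recurs every 3 residues, so its codons recur every 9 bases. A_70_P006991 held a run of 7 GGN at that spacing and A_70_P048191 a run of 6. Runs of 6 or more, searched on both strands, were found in 24 of the 15008 probes (0.160%). The other COL3A1 probes are nearly the same sequence shifted by 2 bases, so they share a target and are not separate evidence. A_70_P006991 was assigned to COL3A1 by its gene identifier and description, and A_70_P048191 by its description alone, as the alpha-1 chain of type III collagen.

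The remaining probes carry no capitals, since no pattern was marked in them.
COL6A1 A_70_P041682: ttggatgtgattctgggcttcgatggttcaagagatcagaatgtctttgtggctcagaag
COL6A1 A_70_P041681: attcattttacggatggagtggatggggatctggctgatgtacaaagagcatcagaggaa
MMP2 A_70_P061386: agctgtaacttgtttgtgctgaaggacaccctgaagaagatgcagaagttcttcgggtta
MMP2 A_70_P026546: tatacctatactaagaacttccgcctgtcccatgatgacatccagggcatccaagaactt
MMP2 A_70_P026547: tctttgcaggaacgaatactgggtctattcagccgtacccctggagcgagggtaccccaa

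Both COL6A1 probes were designed on 1 source sequence, at positions 264 and 600. The file's gene name for it is COL6A1, but its description reads alpha 3 chain, which would be COL6A3, a separate gene. Which of these chains the probes measure cannot be settled from the names, so they are called the probes named COL6A1. The MMP2 probes lie on 1 RefSeq transcript, with listed starts of 192 for A_70_P061386, 1275 for A_70_P026546 and 1603 for A_70_P026547. Over all 9 probes the longest exact stretch shared with a probe other than these 9, on the same strand, was 12 to 16 bases.

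A level is the log2 processed intensity of a probe relative to the 75th percentile of its own array. A difference is the cortisol mean minus the control mean, given with limma's standard error (SE). That percentile was 177 to 286 scanner units. The arrays lay on 2 slides, with replicates 1 to 3 of each group on slide 1 and replicates 4 and 5 on slide 2. All 9 probes were well above background on all 10 arrays and none was saturated. Cortisol replicate 4 had an area of lost signal of 1289 spots (8.48% of its non-control spots). It took in 2 of the 9 members, COL3A1 A_70_P048191 and MMP2 A_70_P061386, whose levels and differences are given with and without that spot. The free-text descriptions of 9 of the 10 samples name the biceps femoris, whereas title, source and tissue name the ventricle. The skeletal muscle markers MYH1, MYH2 and MYF5 were well above background on 0 arrays. The other 3 skeletal muscle markers with a probe were detected, TNNC2 and PYGM on 10 arrays each and MYOD1 on 6. Their mean levels were -1.06 for TNNC2, 2.87 for PYGM and -4.34 for MYOD1. The 4 tested cardiomyocyte markers were MYH7, TPM1, CRYAB and MB. The log2 of their summed linear levels was 10.22 to 10.56 in controls and 10.07 to 10.52 with cortisol. Whether these markers separate ventricle from skeletal muscle was not tested.

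No member probe passed the threshold of an adjusted p under 0.05 in limma. Neither did any of the 10265 probes tested (0%). At an unadjusted p under 0.05, limma gave 1 of the 9 member probes, against 333 of all probes tested (3.24%). That member was higher with cortisol, as were 1.6% of all probes at that p, while 0 members and 1.65% of all probes were lower. The groups overlapped on each of the 9 members, while they did not overlap on 53 of the 9368 probes with a value on every array (0.566%). Member means were higher with cortisol in 4 and lower in 5, and 48.8% of all probes had a higher mean. The median difference was -0.02 over the members and -0.00 over all probes. In whole tissue, fewer cells of a type and less RNA per cell cannot be told apart. Each array is a different fetus, so the limma p-values rest on a spread that joins fetuses and array handling. These cannot be told apart.

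**Figure D1:**
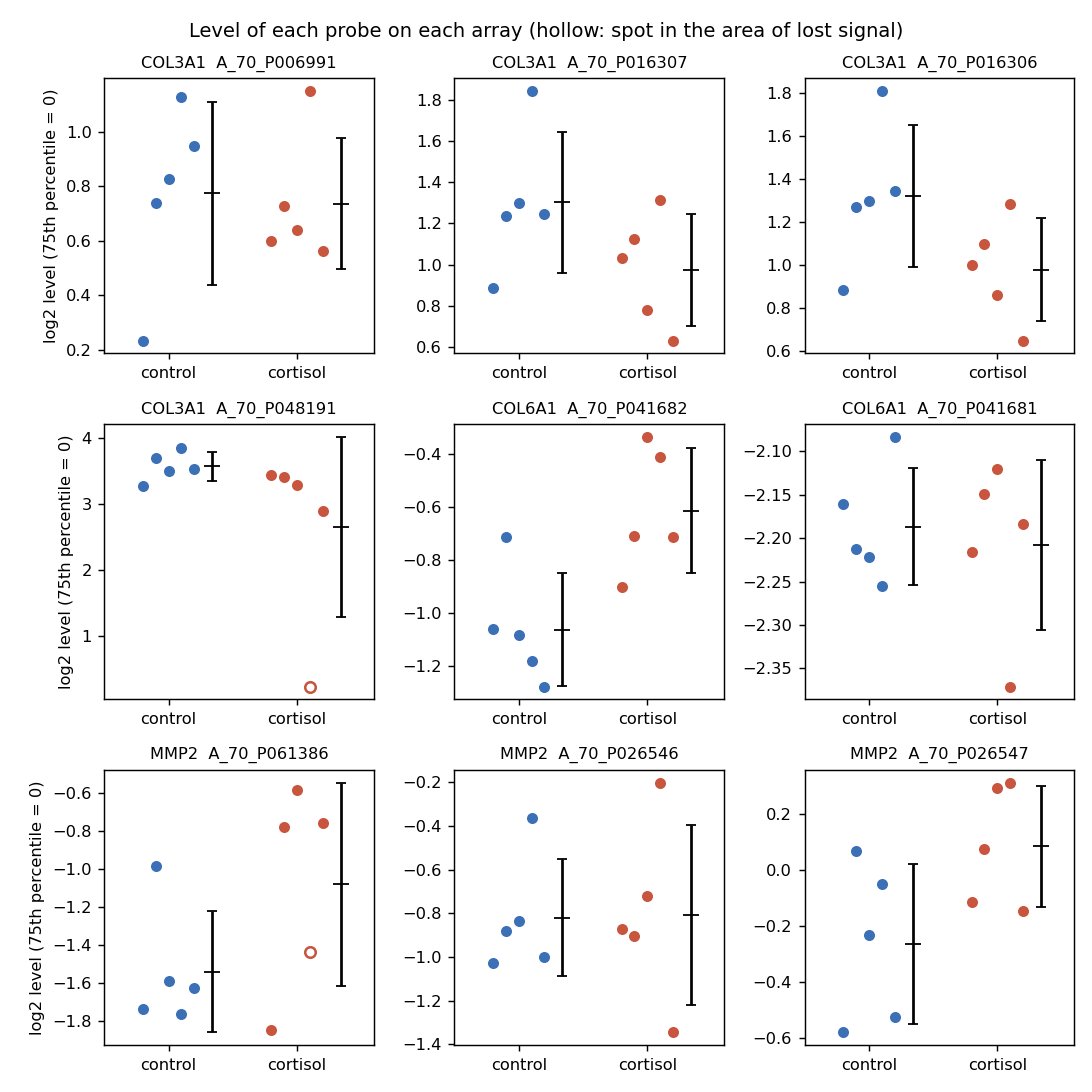
Log2 level relative to the array's 75th percentile (vertical axis, scaled for each panel) of the 9 member probes in 5 control and 5 cortisol arrays, replicates 1 to 5 from left to right; bars are mean ± SD, and hollow points lie in the area of lost signal. The cortisol and control points overlap in every panel, and the single low point of COL3A1 A_70_P048191 at 0.24 is in that area.

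For COL3A1, 3 of the 4 probes had lower means with cortisol, with differences of -0.34, -0.33 and -0.31 once the lost spot was set aside, and 1 had nearly equal means. None passed the test. Probe A_70_P016306 read 0.88, 1.27, 1.30, 1.81 and 1.34 in control replicates 1 to 5. In cortisol replicates 1 to 5 it read 1.00, 1.09, 0.86, 1.28 and 0.65. All 5 cortisol arrays lay below the control mean and 2 lay below the lowest control, which was replicate 1, so the groups overlapped. The group means were 1.32 ± 0.33 (SD, n = 5) and 0.98 ± 0.24 (SD, n = 5), a difference of -0.34 ± 0.18 (SE) with a limma adjusted p of 0.990. The difference was -0.16 on slide 1 and -0.61 on slide 2.

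Its overlapping partner A_70_P016307 gave almost the same picture. Control arrays read 0.89, 1.23, 1.30, 1.84 and 1.25, and cortisol arrays read 1.03, 1.12, 0.78, 1.31 and 0.63. The difference was -0.33 ± 0.19 (SE; limma adjusted p = 0.990), with 4 of 5 cortisol arrays below the control mean. Control replicate 4 was the highest array on both probes and cortisol replicate 5 the lowest.

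Probe A_70_P048191, which carries a GGN run, read 3.27, 3.69, 3.50, 3.85 and 3.52 in controls. The cortisol arrays read 3.43, 3.41, 3.28, 0.24 and 2.90. The value of 0.24 is the spot in the area of lost signal on replicate 4. With it the difference was -0.91 ± 0.54 (SE; limma adjusted p = 0.990), and without it -0.31 ± 0.16 (SE; limma adjusted p = 0.999, 4 cortisol arrays). Without that spot the cortisol mean was 3.25 ± 0.25 (SD, n = 4) against 3.57 ± 0.22 (SD, n = 5) in controls. All 4 remaining cortisol arrays lay below the control mean, and 1 lay below the lowest control.

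The other probe with a GGN run, A_70_P006991, did not show a lower mean of that size. Control arrays read 0.23, 0.74, 0.83, 1.13 and 0.95, and cortisol arrays read 0.60, 0.73, 0.64, 1.15 and 0.56. The difference was -0.04 ± 0.18 (SE; limma adjusted p = 0.995). Control replicate 1 was the lowest of the 10 arrays and cortisol replicate 4 the highest. On slide 1 the difference had the opposite sign, 0.06.

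The probes named COL6A1 split. A_70_P041682 had the smallest unadjusted p of the members, with a higher mean in cortisol arrays, and A_70_P041681 had nearly equal means. A_70_P041682 read -1.06, -0.71, -1.08, -1.18 and -1.28 in control replicates 1 to 5. It read -0.90, -0.71, -0.33, -0.41 and -0.71 in cortisol replicates 1 to 5. All 5 cortisol arrays were above the control mean and 3 were above the highest control, replicate 2, so the groups overlapped. The means were -1.06 ± 0.21 (SD, n = 5) and -0.61 ± 0.24 (SD, n = 5). The difference was 0.45 ± 0.15 (SE), or 1.36-fold, with an unadjusted p of 0.0108 and an adjusted p of 0.990 in limma. It was 0.30 on slide 1 and 0.67 on slide 2.

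A_70_P041681, from further along the same source sequence, spanned a narrow range. Control arrays read -2.16, -2.21, -2.22, -2.26 and -2.08, and cortisol arrays read -2.22, -2.15, -2.12, -2.37 and -2.18. The difference was -0.02 ± 0.09 (SE; limma adjusted p = 0.995). Its SD was 0.07 in controls and 0.10 with cortisol, the smallest spread among the 9 probes. Its processed intensity was 34.2 to 61.8 scanner units. Its sign turned under other background and scaling choices, with 0.10 after normexp background correction.

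For MMP2, A_70_P026547 and A_70_P061386 had higher means with cortisol, and A_70_P026546 had means that differed by 0.01 log2. A_70_P026547, the probe furthest along the transcript, read -0.58, 0.07, -0.23, -0.05 and -0.52 in controls. With cortisol it read -0.11, 0.08, 0.29, 0.31 and -0.14. All 5 cortisol arrays were above the control mean, and 3 were above the highest control. The difference was 0.35 ± 0.16 (SE), or 1.27-fold, with an unadjusted p of 0.0513 and an adjusted p of 0.990 in limma. With the spots of the lost area left out of the whole fit, its unadjusted p in limma was 0.048. The scaling percentile of cortisol replicate 4 was still taken with those spots included. The slides gave like sizes, 0.33 on slide 1 and 0.37 on slide 2.

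A_70_P061386, the most upstream of the set, read -1.74, -0.98, -1.59, -1.76 and -1.63 in controls. Cortisol arrays read -1.85, -0.78, -0.59, -1.44 and -0.76, where -1.44 is the spot in the area of lost signal. The difference was 0.46 ± 0.25 (SE; limma adjusted p = 0.990), and 0.55 ± 0.27 (SE; limma adjusted p = 0.999) without that spot. Cortisol replicate 1 was the lowest of the 10 arrays although 3 others of its group were above every control.

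A_70_P026546 read -1.03, -0.88, -0.83, -0.36 and -1.001 in controls and -0.87, -0.90, -0.72, -0.20 and -1.35 with cortisol. Replicate 4 was the highest array of each group. The difference was 0.01 ± 0.21 (SE; limma adjusted p = 0.999), and its sign turned between slides, 0.08 on slide 1 and -0.09 on slide 2.

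**Figure D2:**
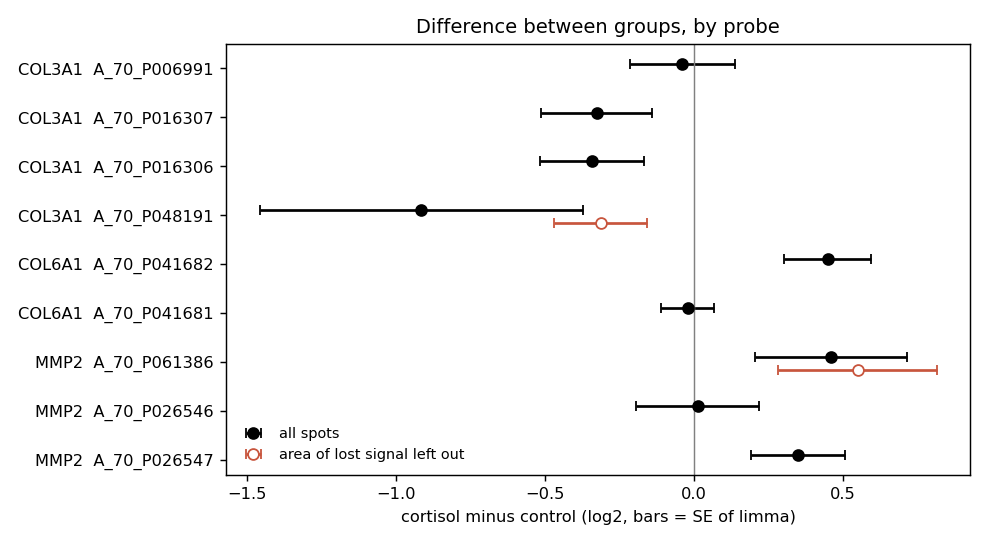
Difference in log2 level, cortisol minus control (horizontal axis), for each member probe with its limma SE as the bar; filled points use all spots and hollow points leave out the area of lost signal. The COL3A1 estimates lie at or below 0 and those of MMP2 at or above it, and the probes named COL6A1 lie at -0.02 and 0.45.

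Probes of 1 gene were then set against each other across the 10 arrays, to see whether they ranked the fetuses alike. Correlations were computed over 36 pairs of member probes, 10 of them within a gene, with permutation p-values adjusted over the 36. The overlapping COL3A1 probes had Pearson r 0.990 and Spearman rho 0.952 (adjusted permutation p 0.00072 and 0.00468). Their spots lie far apart on the array, in rows 21 and 175, and differed by 0.036 log2 on average and by at most 0.093. The SD between control arrays on these probes was 0.33 and 0.34, larger than the difference between the spots on any array. Spots of 1 array share 1 labelling, so this does not separate fetuses from array handling.

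COL3A1 probes at separate positions also ranked the arrays alike by rho, for A_70_P048191 once the lost spot was left out. A_70_P006991 with A_70_P016306 had r 0.788 and rho 0.867 (adjusted permutation p 0.097 and 0.026), with r 0.735 within slide 1. A_70_P006991 with A_70_P016307 had r 0.770 and rho 0.915 (adjusted permutation p 0.097 and 0.012). Neither pair has a spot in the lost area, but with that area left out of the 36 pairs the adjusted permutation p of r was 0.0497 and 0.0554. Leaving out the 2 arrays farthest from the median, control 1 and cortisol 4, raised the r of these pairs to 0.946 and 0.916.

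A_70_P048191 had r 0.087 with A_70_P016306 over all 10 arrays, and r 0.929 and rho 0.917 over the 9 arrays without the lost spot (adjusted permutation p 0.011 and 0.016). That r was 0.855 without the 2 farthest arrays as well, and 0.879 within slide 1. Its r with A_70_P016307 went from 0.049 to 0.920 (adjusted permutation p 0.014), and with A_70_P006991 from -0.340 to 0.690 (adjusted permutation p 0.120). The low correlations of this probe over all 10 arrays rested on 1 spot.

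The probes named COL6A1 did not rank the arrays alike, with r -0.265 and rho 0.030 (adjusted permutation p 0.604 and 0.946). Within slide 1 their r was 0.642 (n = 6, permutation p 0.161). The MMP2 probes gave r 0.558 for A_70_P026546 with A_70_P026547, 0.549 for A_70_P061386 with A_70_P026547 and -0.273 for A_70_P061386 with A_70_P026546. None of these passed after adjustment (adjusted permutation p 0.270, 0.286 and 0.596). Without the lost spot the pairs with A_70_P061386 had r 0.673 and -0.284 over 9 arrays (adjusted permutation p 0.135 and 0.586). Within slide 1 the 3 pairs had r 0.811, 0.830 and 0.550 over 6 arrays.

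**Figure D3:**
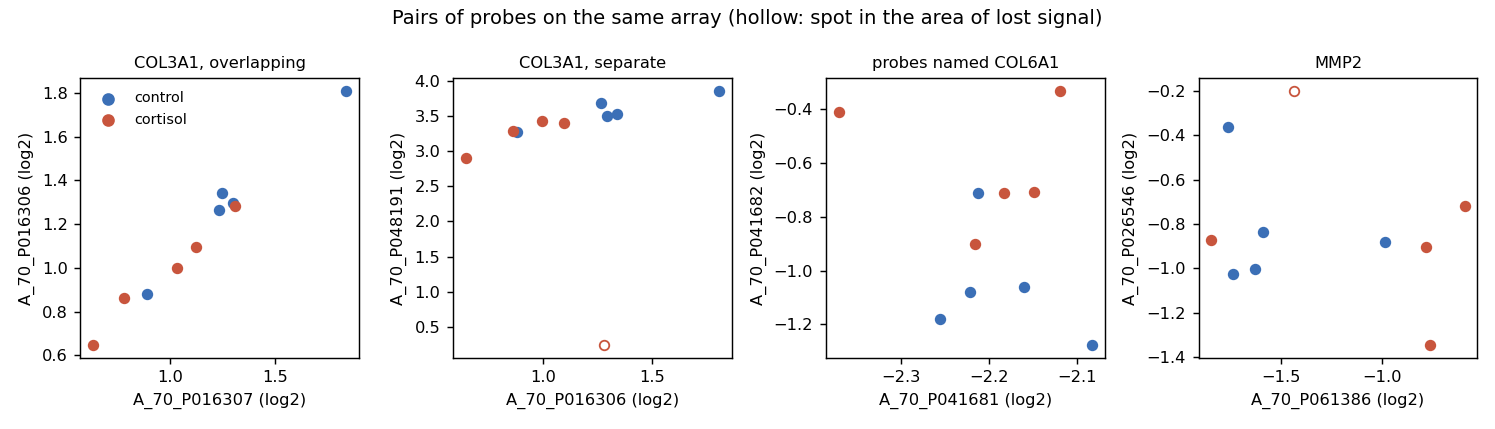
Log2 level of pairs of probes, each point 1 array, blue for control and red for cortisol, with hollow points where a spot lies in the area of lost signal. The overlapping COL3A1 probes fall on a line (r 0.990), A_70_P048191 follows A_70_P016306 except for the hollow point, and the COL6A1 and MMP2 pairs shown scatter.

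Between genes, A_70_P041682, named COL6A1, followed MMP2 A_70_P026547 at r 0.839 and rho 0.806 (adjusted permutation p 0.055 and 0.070). With the lost area left out of the 36 pairs, these same values had an adjusted permutation p of 0.0275 and 0.0398, so the call depends on that choice. The r was 0.720 without control 5 and cortisol 3, 0.891 within slide 1, and 0.727 after each group's mean was removed. A_70_P041682 with MMP2 A_70_P061386 had r 0.712 and rho 0.709 over all arrays (adjusted permutation p 0.137 and 0.194). Over the 9 arrays without the lost spot it had r 0.862 and rho 0.700 (adjusted permutation p 0.028 and 0.173). COL3A1 A_70_P016306 with MMP2 A_70_P026547 had r 0.043 over all arrays and 0.575 after the group means were removed. COL3A1 A_70_P006991 with MMP2 A_70_P026546 had r 0.722 (adjusted permutation p 0.137).

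The ratio of collagen to MMP2 was taken on each array as the log2 level of a collagen probe minus that of an MMP2 probe. Each probe binds with its own efficiency, so only the change of a ratio between arrays can be read, and the ratios carry no test. All 12 COL3A1 to MMP2 ratios had a lower mean with cortisol, with differences of -1.37 to -0.05, and of -0.97 to -0.05 without the lost area. These 12 share 4 collagen and 3 MMP2 probes and are not separate measurements. All 4 COL3A1 probes had a negative difference and all 3 MMP2 probes a positive one, so every ratio had to be lower. The count of 12 therefore adds nothing to the probe differences, and the share of all probes with a lower mean ratio was not computed. The median was -0.68, and -0.64 without the lost area.

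The ratio of COL3A1 A_70_P016306 to MMP2 A_70_P026547 was 1.46, 1.20, 1.53, 1.86 and 1.87 in control replicates 1 to 5. It was 1.11, 1.02, 0.57, 0.97 and 0.79 in cortisol replicates 1 to 5. Every cortisol array lay below every control array, and the means were 1.58 ± 0.28 (SD, n = 5) and 0.89 ± 0.21 (SD, n = 5). The groups of A_70_P016307 to the same MMP2 probe did not overlap either, with a difference of -0.67, though they overlapped after quantile normalization. Those of A_70_P048191 did not overlap with the lost spot (-1.26) or without it (-0.60, 4 cortisol arrays).

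All 3 ratios whose groups did not overlap used A_70_P026547. Against that MMP2 probe, 203 of 9367 probes on the array had groups that did not overlap with cortisol lower (2.17%), so the pattern was not held by COL3A1 alone. Against A_70_P061386 this was so for 20 probes (0.214%), and against A_70_P026546 for 6 (0.0641%), and 0 COL3A1 probes were among them. Against A_70_P061386, A_70_P016306 gave a control mean of 2.86 ± 0.49 (SD, n = 5) and a cortisol mean of 2.06 ± 0.69 (SD, n = 5), or 1.89 ± 0.67 (SD, n = 4) without the lost spot. Against A_70_P026546 it gave 2.14 ± 0.15 (SD, n = 5) and 1.79 ± 0.24 (SD, n = 5). In both, 3 cortisol arrays fell below the lowest control.

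The 6 ratios of the probes named COL6A1 to MMP2 pointed both ways, 4 lower and 2 higher with cortisol, between -0.48 and 0.44. A_70_P041682 to A_70_P026547 was -0.48, -0.78, -0.85, -1.13 and -0.75 in controls and -0.79, -0.79, -0.63, -0.72 and -0.57 with cortisol. The cortisol arrays lay inside the control range on this ratio, with a difference of 0.10. Its SD was 0.23 in controls and 0.10 with cortisol.

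**Figure D4:**
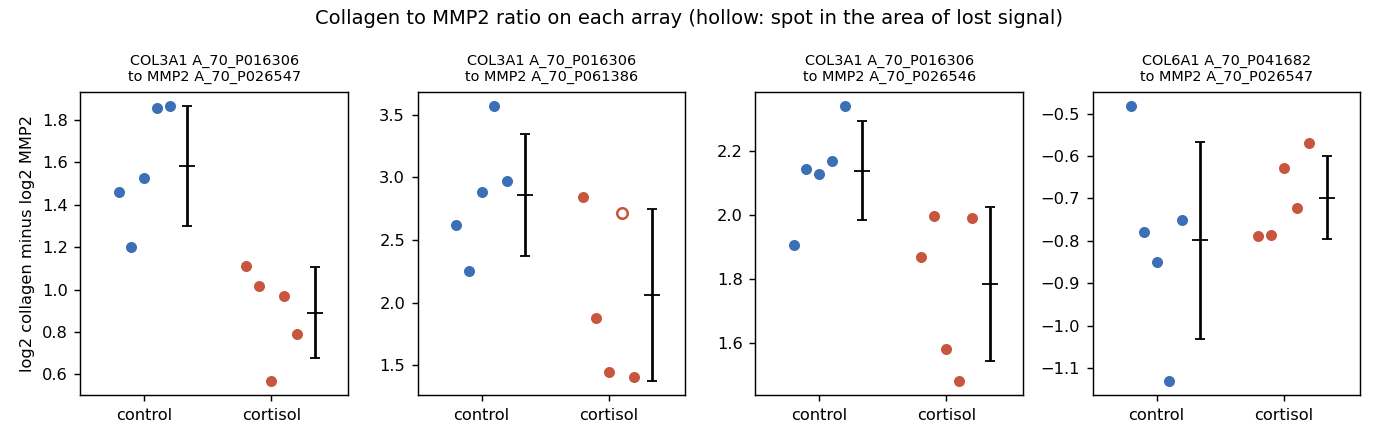
Log2 collagen minus log2 MMP2 on each array (vertical axis, scaled for each panel) for COL3A1 A_70_P016306 against each MMP2 probe and for A_70_P041682 against A_70_P026547; bars are mean ± SD and hollow points include a spot in the area of lost signal. The groups separate in the first panel, 1.20 and above in controls and 1.11 and below with cortisol, and overlap in the others.

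The matrix genes around the members were read from 9 lists of 151 genes, of which 36 had a named probe and 25 beside the members were tested. Of these 25, 0 passed in limma in either direction, 17 had a higher mean and 8 a lower one, with a median of 0.07 against -0.00 over all probes. With the dimmest probe of a gene in place of the brightest, 13 were higher and 12 lower, so the split moved with that choice. On the brightest probes the lists differed. Of 4 fibrillar collagens, 1 was higher and 3 lower (median -0.16), and 4 other collagens split the same way. Metalloproteinase inhibitors and other matrix proteins, 3 genes each, were all higher. In TGF-beta signalling 7 were higher and 1 lower (median 0.14).

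Among fibrillar collagens, COL1A2, the second chain of type I collagen, had a difference of -0.14 ± 0.20 (SE). COL1A1, its first chain, had -0.33 ± 0.60 (SE) on its brightest probe and 0.21 on the other. COL5A2, a type V chain found in the core of collagen fibrils, had 0.01 ± 0.25 (SE). The basement membrane chains COL4A1 and COL4A2 had -0.02 ± 0.09 (SE) and 0.14 ± 0.10 (SE). None of these passed the test.

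MMP14, the membrane protease that activates pro-MMP2, had a difference of 0.25 ± 0.18 (SE), and MMP9, the other gelatinase, was well above background on 0 arrays. TIMP2, an inhibitor that also takes part in MMP2 activation, had 0.07 ± 0.22 (SE). TIMP1 and TIMP3 had 0.06 ± 0.25 (SE) and 0.16 ± 0.29 (SE). PPIB, an isomerase that helps collagen fold, had -0.11 ± 0.12 (SE), and ITGB1, the shared chain of the collagen-binding integrins, 0.17 ± 0.13 (SE). None of these passed the test either.

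Decorin (DCN) and biglycan (BGN), small proteoglycans that bind collagen fibrils, had 0.10 ± 0.18 (SE) and 0.22 ± 0.24 (SE). TGFB1, a growth factor that raises collagen synthesis, had -0.31 ± 0.20 (SE). On the brightest probes, 7 of the 8 tested genes of the TGF-beta signalling list had a higher mean with cortisol, and none passed in limma. SMAD4 and CCN2, of the same pathway, had 0.02 ± 0.14 (SE) and 0.20 ± 0.59 (SE) on their brightest probes. Their other probes gave -0.30 and 0.37. No probe was found here under COL5A1, COL6A2, COL6A3, LOX, SERPINH1, P4HB, SPARC or FN1.

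The named genes most like each probe across the 10 arrays, out of 616 compared, are given as Pearson r without a test. COL3A1 A_70_P006991 was closest to COL1A2 (0.885), IGFBP4 (0.884) and COL5A2 (0.880), so fibrillar collagens took 2 of its 3 places. A_70_P016306 and A_70_P016307 were closest to MX1 (0.856 and 0.852), an interferon-induced gene. A_70_P048191 was close to RPL13A (0.976) and CTSB (0.968), whose spots lie in the area of lost signal, as does its own.

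A_70_P041682, named COL6A1, and MMP2 A_70_P061386 were each closest to EIF4A2 (0.822 and 0.796), a translation initiation factor. MMP2 A_70_P026547 was closest to OVAR-DQA1 (0.820) and YBX1 (0.802), and A_70_P026546 to MX2 (0.900). A_70_P041681 was closest to ITGB6 (0.873), which lies in the area of lost signal, then to connexin 43 (0.864). No gene was among the 3 closest of all probes of COL3A1 or of MMP2.

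Markers of other cells were read beside these results. The 4 tested fibroblast markers had a log2 of summed linear levels of 6.98 to 7.84 in controls and 7.32 to 7.59 with cortisol. These ranges overlap. Such a sum weighs the brightest markers most, here VIM and DCN with mean log2 levels of 6.79 and 5.76. The 7 endothelial markers had 2.84 to 3.54 and 3.07 to 3.31. The 2 smooth muscle markers had 3.21 to 3.69 and 3.17 to 5.77, with CNN1 at 1.01 ± 0.51 (SE), and HBB of red cells 3.18 to 6.07 and 1.99 to 6.58. The part of these cells in the member values was not tested.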

How the data were processed

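Cy3-labelled cRNA from 10 fetal left ventricles was read on a 1-colour Agilent array. Per the submitters' processing notes, the scans were quantified by Agilent Feature Extraction 10.1.1.1. The deposited spot intensity was background-subtracted and detrended and was not normalised between arrays, per the file headers. The authors' deposited value table holds log2 values (array medians 5.77 to 5.79). In order it matched median spot intensity minus local background (Spearman 1.0), and how it was made is not given in the sources used here.

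Control spots (536 of 15744) and spots marked non-uniform, population outlier or not found were left out. The level is the log2 of that intensity, from which the array's 75th percentile was subtracted. Probes well above background on at least 5 of 10 arrays (10265) entered a two-sided test in limma 3.58.1 under R 4.3.3, by lmFit and eBayes with no covariate. P-values were adjusted by Benjamini-Hochberg over all of them, at a threshold of 0.05. The code was tested on simulated data. Correlations over 10 arrays used 100000 random two-sided permutations of the arrays (Python 3.11.15, SciPy 1.17.1) for each pair of member probes. Those over fewer arrays used every order of the arrays. The lost area comprised spots whose surroundings (8 rows, 4 columns and at least 10 bright spots) had a median over 0.75 log2 below the other arrays. Where it was left out, its spots were removed after scaling, so that array's 75th percentile still included them.

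Members and lists were chosen with earlier results of these data known. Genes named were the members, a set list of matrix partners, the 2 tested genes of highest level in each matrix list, and the 3 named genes most correlated with each probe, of which some are not reported here. Alternatives were normexp (offset 50), quantile and median scaling, the deposited table, other filters, slide and replicate blocks, array weights, each slide by itself, a trended and robust variance, the lost area left out and each array left out. Names follow the files, updated by a RefSeq gene table. No genome was used, so no coordinates are given. The number of arrays limits the precision.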

Additional observations from a re-analysis of the deposited data

Results flagged for a closer look

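Dixon's criterion for 1 sample far from the others of its group was met in 8 of the 56 groups of 5 values examined. Chance gives about 1 in 20 for separate groups. The ratios among these groups reuse the values of the probes, so these shares cannot be compared directly. Cortisol replicate 4 was the distant array in 5 of the 8. COL3A1 A_70_P006991 was at 1.15 there, against 0.56 to 0.73 on the other cortisol arrays, and its spot lies outside the area of lost signal. COL3A1 A_70_P048191 was at 0.24 against 2.90 to 3.43, inside that area. Its log2 ratio was 0.44 to MMP2 A_70_P026546, against 4.00 to 4.31, and -0.0713 to MMP2 A_70_P026547, against 2.99 to 3.54. The variation of the spike-in spots, as Feature Extraction reports it, was 28.6% on that array and 6.74 to 10.8% on the other cortisol arrays.

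MMP2 A_70_P061386 was at -0.98 on control replicate 2, against -1.76 to -1.59 on the other controls. The ratio of A_70_P041681, named COL6A1, to that MMP2 probe was -1.23 on the same array, against -0.63 to -0.42. MMP2 A_70_P026546 was at -0.36 on control replicate 4, against -1.03 to -0.83.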

How the results depend on the processing

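No member probe passed the threshold in limma under any of the 24 alternatives (adjusted p 0.583 to 1.000). Over all probes the count called was 0 except on slide 2 alone, with 1, and 0 with each array left out. With the replicate number as a block limma again called 0 (397 of 10265 unadjusted). Its unadjusted p was then 0.023 for A_70_P041682, 0.044 for A_70_P061386 and 0.022 for A_70_P026547, and over 0.05 for the other members. Same-numbered arrays deviated together with r over 0.1 in 3 of 5 numbers. The best match of control replicates 1, 3 and 4 was the cortisol array of the same number. Same-numbered arrays also lay on the same slide, so these values cannot decide whether the numbers pair fetuses. The main fit did not pair them. Normexp gave 855 unadjusted calls against 333. COL3A1 A_70_P006991 turned to 0.0554 on slide 1 and ranged from -0.17 to 0.0489 over arrays left out. A_70_P041681, named COL6A1, turned to 0.10 with normexp, 0.0027 with quantile scaling, 0.000285 with median scaling and 0.0365 on slide 1 (-0.0432 to 0.0196 over arrays left out). MMP2 A_70_P026546 turned to -0.0103 with the deposited table, -0.0913 on slide 2 and -0.0056 with array weights (-0.14 to 0.15 over arrays left out). No alternative turned the sign of the other 6 probes. The ratios to MMP2 A_70_P026547 on slide 2 and slide 1 were -2.49 (lost spot included) and -0.45 for A_70_P048191, and -0.98 and -0.50 for A_70_P016306. On slide 2 A_70_P041682 had 0.30. The last turned to -0.0134 with the deposited table and -0.0303 on slide 1. The groups of A_70_P016306 to A_70_P026547 did not overlap under any of the alternatives run, and those of A_70_P016307 overlapped under quantile scaling alone. With arrays left out, the ratios of A_70_P048191, A_70_P016306 and A_70_P041682 to A_70_P026547 ranged from -1.51 to -0.60, -0.79 to -0.61 and 0.02 to 0.18. The correlation of A_70_P048191 without the lost area was 0.69 with A_70_P006991, 0.92 with A_70_P016307 and 0.93 with A_70_P016306. With the lost spot kept, the main processing gave 0.049 with A_70_P016307 and 0.087 with A_70_P016306. Under normexp and the deposited table, also with that spot, it was -0.38 and -0.41 with A_70_P016307, and -0.37 and -0.39 with A_70_P016306. The pair named COL6A1 had 0.25 and 0.0459 under the same choices. MMP2 A_70_P061386 with A_70_P026547 had -0.11 with the deposited table (lost spot included). A_70_P026546 with A_70_P026547 had 0.66 with normexp (permutation p 0.038 before adjustment). The cause of these moves was not tested, apart from the lost spot.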
